A study of Mus musculus with 16 samples.

Results

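Irradiated B16F10-GP melanomas with little skin epithelium in the sample were compared with unirradiated ones, across all genes. The libraries were chosen by their counts of 6 epidermal keratins (Krt1, Krt5, Krt10, Krt14, Krt15 and Krt17), which form the filaments of keratinocytes. Of the 16 libraries in the series, 3 of the 8 irradiated ones had low keratin counts and were set against all 8 unirradiated ones, so that 11 libraries entered the comparison. The 3 were replicates 1 and 3 of the 5 Gy group and replicate 1 of the group given 5 Gy with QH-II-066.

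B16F10 is a pigmented mouse melanoma line, and B16F10-GP cells were implanted in 25% Matrigel on the flanks of female C57BL/6 mice aged 6 to 8 weeks. Mice of the 5 Gy group had their right flank irradiated once with X-rays, on day 10. QH-II-066, a drug candidate known by its code name that was given with radiation in a study of GABA-A receptors, was injected intraperitoneally at 10 mg/kg each day for 7 days from day 10. Mice with both treatments were irradiated in the morning and given the drug that evening, and the 8 unirradiated libraries were 4 labelled untreated and 4 from mice given QH-II-066 alone. Controls are labelled untreated although the protocol describes vehicle. RNA of the tumours was sequenced after transcriptome capture, which enriches fragments of annotated transcripts with probes. Which flank's tumour was profiled is not given, nor whether each library stands for its own mouse, so p-values reflect only how much these libraries vary, possibly for technical reasons. QH-II-066 had been given for 1 of the 3 irradiated and 4 of the 8 unirradiated libraries.

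Ionizing radiation breaks DNA, and cells with intact p53 answer by raising p53 targets such as the cell cycle inhibitor Cdkn1a. Irradiated tissue is also known for a later repair response, in which fibroblasts lay down collagen matrix and macrophages that take up debris through scavenger receptors gather. Fibroblasts make fibrillar collagens as procollagen chains, which are trimmed by proteases, cross-linked by lysyl oxidases and bound by small proteoglycans.

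CPM stands for counts per 1000000 counts of a library. The summed keratins that set the choice, without scaling, were 0.576, 0.501 and 5.74 CPM in 5 Gy replicate 1, 5 Gy replicate 3 and replicate 1 of the combined group. They were 0.0799 to 4.60 CPM in the unirradiated libraries. The irradiated library just outside the choice, replicate 3 of the combined group, had 261 CPM, and the highest had 2970. Keratins and other skin epithelium genes are therefore given as a description, with no test. Total counts were 23035634 to 40799942 in the 11 libraries, and 15592 genes passed the filter on low counts. Genes of pigmentation, which mark the melanoma cells, were abundant in each of the 11, with a mean log2 CPM over 15 genes of 8.77, 8.68 and 8.58 in the irradiated libraries and 8.67 to 9.03 in the unirradiated ones. From here on CPM values are scaled by TMM factors of library size. A list score, here and below, is a mean log2 CPM, also scaled by TMM factors. It covers the list members that passed the low-count filter applied to all 16 libraries. Values of the 3 irradiated libraries are always given in the order above, and those of the 8 unirradiated ones as the lowest, the median and the highest. Skin epithelium scores were -2.12, -1.91 and 0.0044 against -2.45, -2.18 and -0.89. For these and for the summed keratins the combined library was the highest of the 11.

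**Figure D1:**
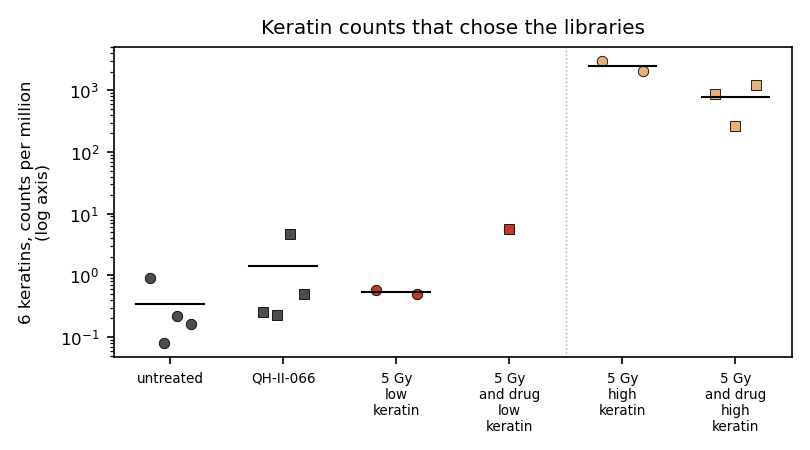
Summed counts of 6 epidermal keratins in CPM, on a log axis, with 1 point per library and a line at each group mean. The 3 low-keratin irradiated libraries lie at 0.501 to 5.74 CPM, beside unirradiated ones at 0.0799 to 4.60, while the 5 irradiated libraries right of the dotted line lie at 261 to 2970.

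Transcripts of the collagen matrix and of fibroblasts stood at higher levels in the 3 irradiated libraries, although 0 genes passed the edgeR test after adjustment over all genes. Col1a1, a chain of type I collagen, was at 465 to 1137 CPM there and at 124 to 303 CPM in the unirradiated libraries. Scores of macrophage scavenger receptors were 4.32, 3.98 and 3.40 against 2.37 to 3.71, above that range in the libraries without the drug only. With Benjamini-Hochberg adjustment the quasi-likelihood test of edgeR called 0 genes higher (0.0% of 15592) and 0 lower (0.0%) at an adjusted p under 0.05, and the lowest adjusted p was 0.175, shared by 21 genes. At an unadjusted p under 0.05 there were 590 higher genes (3.78%) and 157 lower ones (1.01%), 747 in all (4.79%). Without any true difference a share of about 0.05 would fall under this threshold, and the total was no more than that. DESeq2 called 88 genes higher (0.541% of 16273) and 1 lower (0.00615%). Limma-voom with sample weights, which gives less weight to libraries that deviate, called 170 higher (1.09%) and 48 lower (0.308%). Both of these tools called 62 genes, 69.7% of the DESeq2 calls and 28.4% of the limma-voom calls, and 61 of the 62 were higher. Counted by library, 218 genes (1.4%) lay above all 8 unirradiated libraries in each of the 3 irradiated ones, and 73 (0.468%) lay below. Of all tested genes the median log2 fold change was -0.03.

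**Figure D2:**
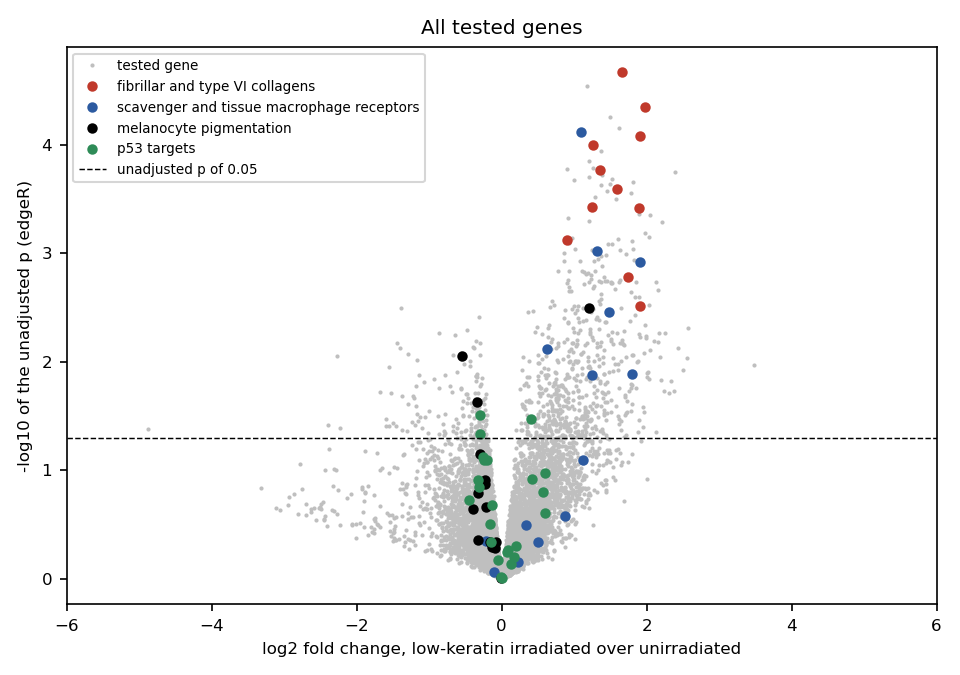
Log2 fold change of 3 low-keratin irradiated over 8 unirradiated libraries against -log10 of the unadjusted edgeR p, with 1 point per tested gene. The 11 collagens in red lie on the right above the dashed line, which marks the unadjusted edgeR threshold, with Col5a1 at 1.67 the uppermost, while the p53 targets in green lie about 0.

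Fibrillar collagens and type VI collagen, the main fibres and microfibrils of the stroma, were the genes at the top. All 11 tested members of 13 had an unadjusted p under 0.05 on the higher side, beside 3.78% of all genes, and the median log2 fold change of the 11 was 1.67. In 9 of the 11 the irradiated and unirradiated libraries did not overlap, DESeq2 called 11 and limma-voom 9. Col6a5 and Col6a6 did not pass the filter on low counts. This list and the others below were chosen with earlier results of these libraries known, so their counts are a description. The shares of all genes to set beside them are 3.78% higher and 1.01% lower at an unadjusted p under 0.05. Without overlap they are 1.4% above and 0.468% below.

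Col5a1, the type V collagen chain that helps to start fibrils (ENSMUSG00000026837, chr2:27886425-28039514, plus strand in mm10), had the smallest p of all genes. It was at 150.2, 87.0 and 84.6 CPM in the irradiated libraries and at 22.6, 30.3 and 49.4 CPM in the unirradiated ones, which is 1.67 ± 0.25 (SE) on the log2 scale (edgeR adjusted p = 0.175). Each irradiated library lay above each unirradiated one. Col1a1, the main chain of type I collagen, the fibre of scar and dermis (ENSMUSG00000001506, chr11:94936224-94953042, plus strand), was at 1137, 548 and 465 CPM against 124, 149.7 and 303 CPM. Its log2 fold change was 1.98 ± 0.32 (edgeR adjusted p = 0.175), again with no overlap, and 5 Gy replicate 1 was the highest by far. For Col1a2, the partner chain, the values were 1058, 563 and 698 CPM against 121, 168 and 355 CPM (log2 fold change 1.91 ± 0.33). Col3a1, the chain of type III collagen that goes with type I in repairing tissue, was at 1421, 919.7 and 707 CPM against 116, 242 and 511 CPM (1.90 ± 0.39; edgeR adjusted p = 0.212). Neither of these overlapped between the groups. Over all alternatives with a test the adjusted p of Col1a1 ranged from 5.2e-05 in DESeq2 to 0.793, and that of Col5a1 from 3.0e-05 to 0.793.

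Type VI collagen, a network of beaded filaments around cells, differed by less. Col6a1 was at 155, 75.3 and 77.5 CPM against 29.4, 43.4 and 52.5 CPM (1.26 ± 0.22), and Col6a3 at 177, 76.8 and 83.5 CPM against 27.4, 45.8 and 55.3 CPM (1.35 ± 0.25), with no overlap in either. Col5a3 at 0.91 ± 0.20 and Col12a1 at 1.74 ± 0.43, minor chains of fibrils and of their surface, overlapped with the unirradiated libraries. Col5a2, another type V chain, was at 189, 96.0 and 68.8 CPM against 24.5, 36.5 and 57.8 CPM (1.59 ± 0.31), with no overlap. Col24a1, a rare fibrillar chain outside the list, was at 1.22, 0.933 and 0.746 CPM against 0.119, 0.259 and 0.449 CPM (1.79 ± 0.35). As an instance of the DNA upstream of these genes, the 250 bases before the RefSeq start of 3 collagen genes are shown, on the plus strand of GRCm38.p6. They stand at chr6:4505368-4505617 for Col1a2, chr1:45311288-45311537 for Col3a1 and chr2:27886175-27886424 for Col5a1, with each CCAAT (or ATTGG) and TATAAA (or TTTATA) match in capitals.
Col1a2: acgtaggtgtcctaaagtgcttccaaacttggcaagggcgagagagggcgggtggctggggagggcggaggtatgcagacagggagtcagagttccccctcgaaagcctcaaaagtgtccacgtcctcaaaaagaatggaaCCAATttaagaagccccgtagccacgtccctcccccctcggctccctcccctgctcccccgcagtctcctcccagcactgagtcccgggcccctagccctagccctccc
Col3a1: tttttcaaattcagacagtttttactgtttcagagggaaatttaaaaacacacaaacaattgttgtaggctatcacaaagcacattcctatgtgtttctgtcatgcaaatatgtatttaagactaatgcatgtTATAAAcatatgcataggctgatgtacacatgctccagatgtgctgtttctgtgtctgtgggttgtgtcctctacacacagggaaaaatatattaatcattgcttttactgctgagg
Col5a1: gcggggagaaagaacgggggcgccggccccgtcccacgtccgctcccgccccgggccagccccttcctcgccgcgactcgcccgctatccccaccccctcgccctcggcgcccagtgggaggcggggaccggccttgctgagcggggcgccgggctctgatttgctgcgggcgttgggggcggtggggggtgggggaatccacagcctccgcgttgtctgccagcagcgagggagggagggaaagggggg
Col1a2 held 1 CCAAT match, Col3a1 held 1 TATAAA match and Col5a1 held neither. Among 8 RefSeq promoters of 7 tested collagens, 2 held CCAAT and 1 held TATAAA, and of 32851 promoters of this length 33.85% and 12.37% did. The motifs were searched on both strands with overlapping matches allowed, and a match is only a run of letters.

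Genes that trim and cross-link collagen had a median of 0.30 over 16 tested members, of which 5 had an unadjusted p under 0.05 on the higher side and 4 had no overlap. These were the proteases Bmp1 and Adamts2, which trim procollagen at its ends, and the lysyl oxidases Lox and Loxl1. Bmp1 was at 39.8, 31.3 and 33.1 CPM against 14.4, 17.1 and 25.1 CPM (0.90 ± 0.17), Adamts2 at 33.3, 21.3 and 17.9 CPM against 6.01, 9.01 and 14.5 CPM (1.36 ± 0.26), and Lox at 106, 55.9 and 40.1 CPM against 9.60, 15.4 and 39.3 CPM (1.82 ± 0.43). All 4 were called by DESeq2 and by limma-voom. Serpinh1, a chaperone of procollagen, was at -0.15 ± 0.18 (95% interval -0.54 to 0.24), and P4ha1, which hydroxylates the prolines of procollagen, at -0.09 ± 0.15 (-0.41 to 0.23). Without 5 Gy replicate 3 the median of this list was 0.15.

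Of 25 matrix proteoglycans and glycoproteins 18 had an unadjusted p under 0.05 on the higher side, 7 did not overlap, and the median was 1.37. Bgn, which encodes the proteoglycan biglycan bound to collagen fibrils, was at 341, 192 and 227 CPM against 54.7, 92.7 and 161 CPM (1.39 ± 0.26; edgeR adjusted p = 0.175). Thbs2, a matricellular protein, was at 81.1, 43.2 and 46.6 CPM against 9.90, 16.7 and 36.1 CPM (1.53 ± 0.34), and Dcn, the proteoglycan decorin, at 103, 99.5 and 79.2 CPM against 9.88, 29.0 and 67.7 CPM (1.42 ± 0.49). These 3 did not overlap, while Postn at 1.72 ± 0.40 and Tnc at 1.37 ± 0.36, matricellular proteins of wounds, did. Among 16 matrix proteases and inhibitors the median was 0.82 and 7 had an unadjusted p under 0.05, all higher. Mmp2, a gelatinase of fibroblasts (ENSMUSG00000031740, chr8:92827328-92853417, plus strand), was at 60.0, 49.3 and 41.1 CPM against 11.8, 16.2 and 28.9 CPM (1.49 ± 0.24; edgeR adjusted p = 0.175). Mmp3, the stromelysin that cleaves many matrix proteins, was at 35.8, 55.0 and 46.1 CPM against 4.35, 13.9 and 19.7 CPM (1.89 ± 0.39), and Ctsk, a collagen-degrading cathepsin, at 22.4, 18.4 and 29.8 CPM against 6.34, 9.82 and 17.1 CPM (1.17 ± 0.29). Mmp14, a membrane protease, had an interval of -0.05 to 0.60 about 0.27.

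Basement membrane collagens and laminins, the sheets under vessels and epithelia, had 12 of 12 members above 0, with 5 at an unadjusted p under 0.05 and none without overlap. Their median of 0.73 rested on 5 Gy replicate 1, where the score was 6.64. It was 0.03 without that library, and the scores of 5 Gy replicate 3 and the combined library, 5.69 and 5.03, lay among the unirradiated ones at 4.59 to 5.71. For the fibrillar and type VI collagens the median was 1.07 without 5 Gy replicate 1.

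Fibroblast markers lay higher as a group. Of 15 tested genes of fibroblast identity, all were above 0, 9 had an unadjusted p under 0.05, 7 did not overlap and the median was 1.25. Pdgfra, the platelet-derived growth factor receptor that marks fibroblasts, was at 17.4, 12.3 and 9.24 CPM against 2.60, 3.99 and 7.53 CPM (1.58 ± 0.32; edgeR adjusted p = 0.188). Prrx1, a transcription factor of connective tissue, was at 22.4, 16.1 and 16.6 CPM against 5.00, 6.07 and 12.9 CPM (1.25 ± 0.29), and Cxcl12, a stromal chemokine, at 47.4, 51.2 and 27.3 CPM against 8.55, 16.1 and 23.7 CPM (1.38 ± 0.32). Pi16, a marker of fibroblasts around vessels and in loose connective tissue, was at 28.9, 20.2 and 28.0 CPM against 0.453, 6.86 and 12.9 CPM (1.99 ± 0.59). None of these 4 overlapped. In a bulk sample more fibroblasts and more RNA of these genes per fibroblast cannot be told apart.

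Of the 7 genes of the PDGF family 5 had an unadjusted p under 0.05 on the higher side (median 0.93). The receptor Pdgfrb was at 42.1, 24.9 and 27.3 CPM against 12.2, 15.9 and 22.5 CPM (0.93 ± 0.21), with no overlap, and the ligand Pdgfc at 1.22 ± 0.41. The ligands Pdgfa at 0.42 ± 0.37 and Pdgfb at 0.50 ± 0.26 had intervals that included 0. Of 22 genes of TGF-beta and activin signalling 5 had an unadjusted p under 0.05, all higher, and the median was 0.36. Fstl1, a secreted glycoprotein of connective tissue, was at 226, 161 and 203 CPM against 81.3, 94.1 and 148 CPM (0.91 ± 0.19) and was the member without overlap. Sfrp2, which binds Wnt ligands, was at 11.5, 15.1 and 14.9 CPM against 0.189, 1.99 and 7.56 CPM (2.56 ± 0.83), with no overlap. Vessels differed less: pericyte and smooth muscle genes had a median of 0.45, with 5 of 13 at an unadjusted p under 0.05, and endothelial genes 0.53, with 7 of 15 and none without overlap. The endothelial median was 0.20 without 5 Gy replicate 1.

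**Figure D3:**
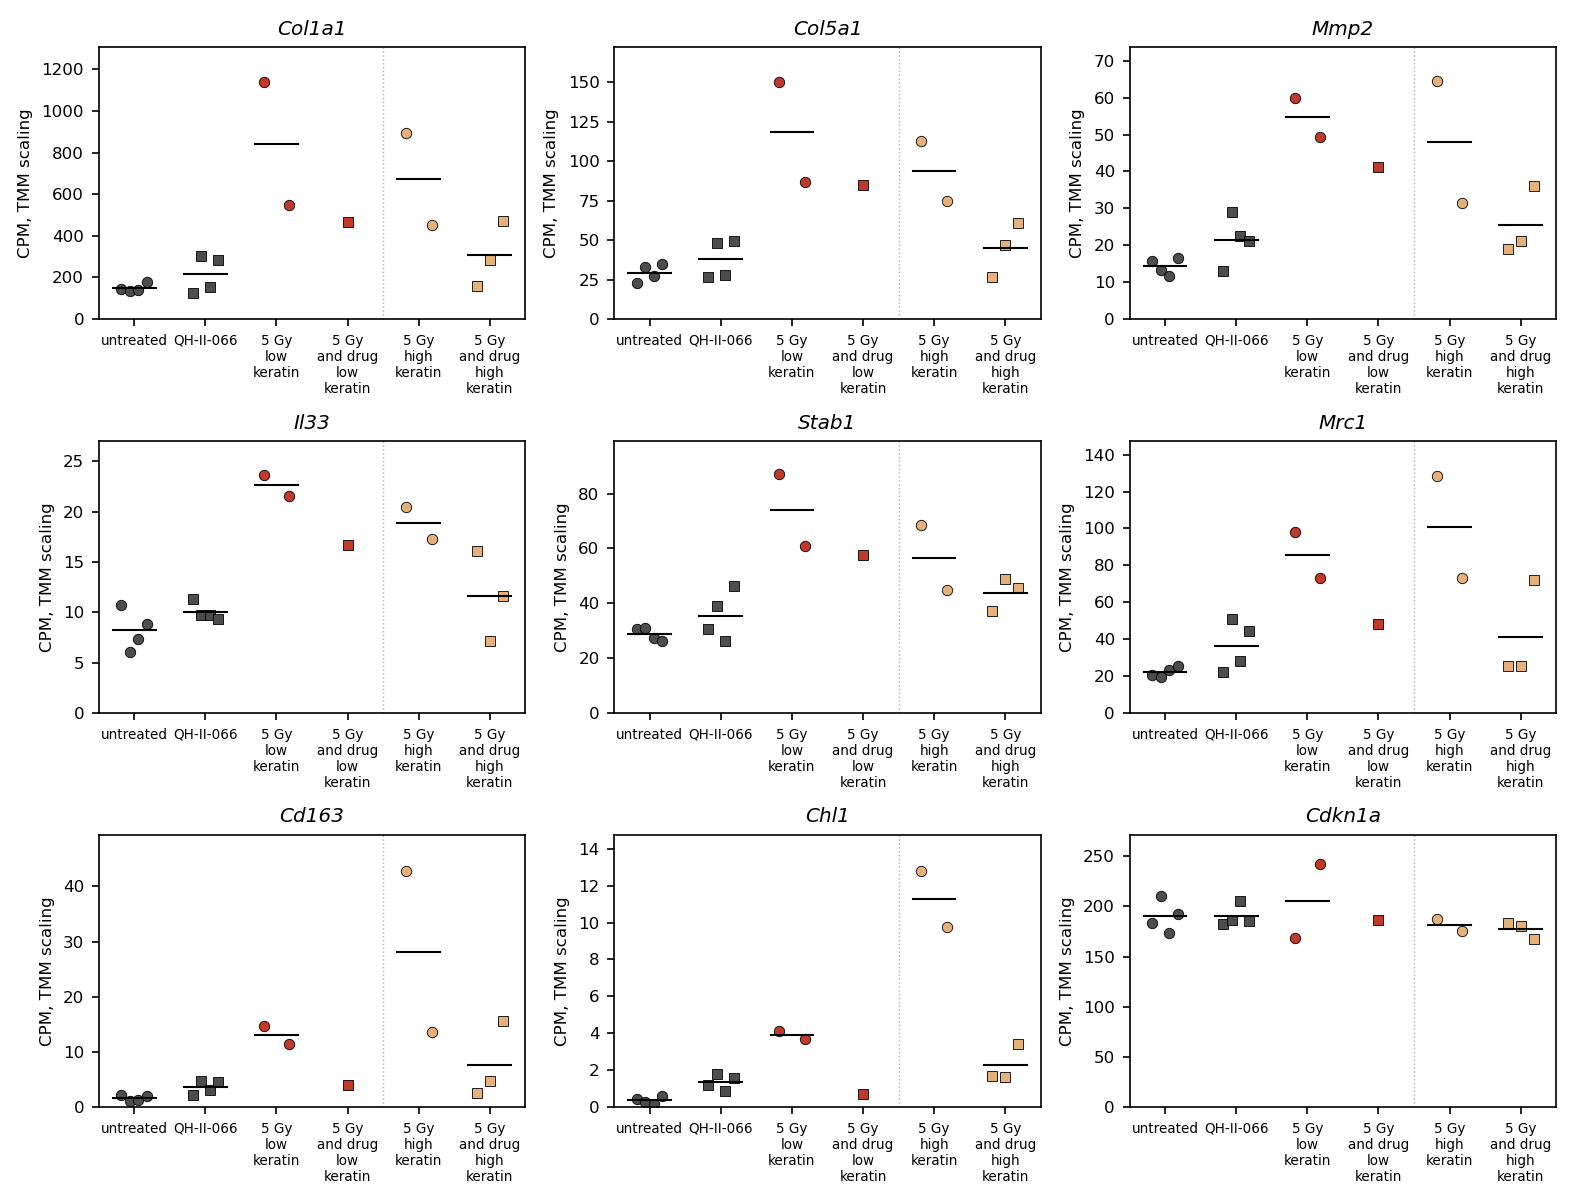
Levels in CPM of 9 genes, with 1 point per library and a line at each group mean; the libraries right of the dotted line are the 5 high-keratin irradiated ones, outside the comparison. The red points of Col1a1, Col5a1, Mmp2, Il33 and Stab1 lie above all grey ones, those of Mrc1 and Cd163 overlap them in the library with the drug, and those of Cdkn1a lie among them.

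Genes with the smallest p were not all of the matrix. Il33, a nuclear alarmin cytokine of stromal and barrier cells that is released on damage (ENSMUSG00000024810, chr19:29925114-29960718, plus strand), was at 23.7, 21.6 and 16.7 CPM against 6.08, 9.55 and 11.3 CPM, which is 1.17 ± 0.18 on the log2 scale (edgeR adjusted p = 0.175). The groups did not overlap. Among alternatives its adjusted p ran from 5.2e-05 in DESeq2 to 0.793, and it was one of 3 genes that edgeR called higher with the gene length slope as a covariate, with Ccl7 and Adam19. Itga11, a collagen-binding integrin subunit, was at 3.99, 0.799 and 2.02 CPM against 0.226, 0.394 and 0.673 CPM (2.4 ± 0.45), with 5 Gy replicate 1 the highest, and limma-voom gave 1.08. Adra2a, an adrenergic receptor, was at 2.43, 2.67 and 2.82 CPM against 0.713, 0.975 and 1.51 CPM (1.38 ± 0.25). Tfpi2, an inhibitor of proteases, was at 4.83, 5.96 and 3.54 CPM against 1.18, 1.65 and 2.66 CPM (1.46 ± 0.29), and Hic1, a transcriptional repressor, at 3.96, 3.16 and 2.66 CPM against 0.917, 1.32 and 2.08 CPM (1.28 ± 0.26). No overlap was seen for these 4. The remaining genes of the 25 with the smallest p were Cercam, Ccdc8, Colec12, Gpr153, Nxpe5, Kif26b, Cpz, Mark1 and members given above or below, with log2 fold changes of 1.0 (Kif26b) to 1.81 (Cpz).

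Scavenger receptors of tissue macrophages followed. Of 14 members 7 had an unadjusted p under 0.05 on the higher side, the median was 0.99, DESeq2 called 3 and limma-voom 5. Stab1, which clears matrix fragments and modified lipoproteins (ENSMUSG00000042286, chr14:31139013-31168641, minus strand), was at 87.1, 61.0 and 57.6 CPM against 26.2, 30.6 and 46.4 CPM (1.09 ± 0.18; edgeR adjusted p = 0.175) and was the member without overlap. Mrc1, the mannose receptor, was at 98.2, 73.1 and 48.5 CPM against 19.5, 24.4 and 51.0 CPM (1.32 ± 0.30; edgeR adjusted p = 0.318). Cd163, which takes up haemoglobin bound to haptoglobin, was at 14.6, 11.4 and 4.0 CPM against 1.13, 2.16 and 4.72 CPM (1.90 ± 0.45; edgeR adjusted p = 0.327). In both the library with the drug lay within the unirradiated range and the 5 Gy ones above it. The median of the list was 0.56 without 5 Gy replicate 1.

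General genes of macrophages and monocytes had 18 of 18 members above 0, with a median of 0.56 and 7 at an unadjusted p under 0.05. Lyz2, the lysozyme of myeloid cells, was at 539.9, 469 and 485 CPM against 148, 255 and 437 CPM (0.92 ± 0.26), with no overlap. Csf1r, the growth factor receptor that keeps macrophages alive, was at 0.88 ± 0.31 and overlapped. Limma-voom gave the list a median of 0.32 and called 1 member. Complement components had a median of 0.76, with 8 of 16 at an unadjusted p under 0.05, and C5ar1, the receptor for the fragment C5a, was at 20.6, 17.7 and 20.6 CPM against 7.83, 10.3 and 15.7 CPM (0.85 ± 0.20). All 20 tested chemokines were above 0, with a median of 0.58 and 5 at an unadjusted p under 0.05. Ccl8, a chemokine that draws monocytes, was at 166, 189 and 272 CPM against 32.7, 104 and 157 CPM (1.07 ± 0.43), and Cxcl5, which draws neutrophils, at 3.54, 5.20 and 3.46 CPM against 0.119, 1.19 and 2.42 CPM (1.73 ± 0.66), with no overlap in either. Dendritic cell genes had a median of 0.24, with 9 of 12 members above 0, 3 at an unadjusted p under 0.05, and scores of 2.83, 2.56 and 2.73 against 1.74 to 2.92. The member without overlap was Ccr7, their homing receptor, which was at 3.30, 3.43 and 1.94 CPM against 0.497, 0.921 and 1.74 CPM (1.42 ± 0.35).

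Lymphoid and interferon genes had medians nearer to that of all genes. They were 0.15 for T cells, 0.21 for cytotoxic and NK cells and 0.20 for regulatory T cells and checkpoints. Of their tested members 1 of 14, 0 of 13 and 1 of 12 had an unadjusted p under 0.05, beside 4.79% of all genes. Under limma-voom the T cell median was -0.41. Cd8a, a chain of the CD8 co-receptor, was at 8.96, 3.76 and 9.08 CPM against 4.62, 7.24 and 9.71 CPM (0.00 ± 0.30, 95% interval -0.66 to 0.67). Gzmb, the killing protease of cytotoxic cells, was at 5.45, 6.70 and 8.58 CPM against 5.90, 11.2 and 19.4 CPM (-0.70 ± 0.33, -1.43 to 0.03). Ifng at 0.61 ± 0.46 and Foxp3, the factor of regulatory T cells, at 0.70 ± 0.53 had wide intervals of -0.40 to 1.61 and -0.47 to 1.86. The sign of Cd8a and Foxp3 changed under other settings. For 20 type I interferon genes the median was 0.03, with Isg15, a ubiquitin-like protein induced by interferon, at 0.10 ± 0.42 (-0.82 to 1.02), and signs of it also changed. B2m, the light chain of MHC class I, was at -0.15 ± 0.16 (-0.49 to 0.19), and H2-Aa, a chain of MHC class II, at -0.31 ± 0.33 (-1.03 to 0.41).

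Genes of p53 signalling and the cell cycle had medians close to that of all genes. The median of 24 p53 targets was -0.03. Of the 24, 1 had an unadjusted p under 0.05 on the higher side and 2 on the lower, beside 3.78% and 1.01% of all genes. Cdkn1a was at 168, 243 and 187 CPM against 174, 186 and 210.3 CPM, a log2 fold change of 0.07 ± 0.12 with a 95% interval of -0.18 to 0.32. Mdm2, which degrades p53, was at -0.05 ± 0.12 (-0.32 to 0.21), and Mki67, a nuclear protein of dividing cells, at -0.02 ± 0.15 (-0.36 to 0.31). The signs of all 3 changed under some alternatives. The time from irradiation to collection is not stated here, and a change at other times was not tested. DNA replication, mitosis and DNA damage repair had 19 of 20, 15 of 20 and 19 of 22 members below 0, with medians of -0.09, -0.04 and -0.10. Of their members 1 had an unadjusted p under 0.05, Brca1, which repairs double-strand breaks, at 234, 177 and 200.1 CPM against 208, 257 and 325 CPM (-0.37 ± 0.14). Limma-voom called Brca1 lower. Plk2, a p53-induced kinase, was the target on the higher side (0.40 ± 0.17 in edgeR), and limma-voom called it too. Sesn2, a stress-induced sestrin, was at 15.5, 16.2 and 17.4 CPM against 17.7, 19.6 and 24.0 CPM (-0.29 ± 0.12), below all unirradiated libraries.

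Pigmentation genes lay slightly lower, with 14 of 15 members below 0 and a median of -0.22. Pmel, which forms melanosome fibrils, was at 4009, 4410.1 and 4935 CPM against 4541, 4961 and 6031 CPM (-0.22 ± 0.14, 95% interval -0.52 to 0.08), Tyr, the first enzyme of melanin synthesis, at -0.33 ± 0.22 and Mitf, the master factor of melanocytes, at -0.13 ± 0.19. Limma-voom called Oca2, a melanosomal transporter (-0.55 ± 0.18 in edgeR), and the channel Trpm1 (-0.34 ± 0.13) lower. Ednrb, the endothelin receptor, stood apart from the list at 25.6, 26.4 and 11.2 CPM against 4.45, 8.59 and 14.3 CPM (1.21 ± 0.33). Which cells made it was not tested.

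Among lower genes the differences were small. Smpd1, the acid sphingomyelinase of lysosomes, was at 156, 138 and 159.9 CPM against 174, 190.2 and 200.4 CPM, which is -0.31 ± 0.09 on the log2 scale (edgeR adjusted p = 0.489). It was the gene that DESeq2 called lower, limma-voom called it too, and the groups did not overlap, but it was at -0.02 when all 8 irradiated libraries entered. Neil2, a DNA glycosylase of base excision repair, was at 7.53, 10.9 and 9.16 CPM against 11.4, 12.4 and 14.1 CPM (-0.47 ± 0.14), and Gjb2, which encodes connexin 26, at 125, 108 and 125 CPM against 128, 154 and 170.2 CPM (-0.36 ± 0.11). Cth, the enzyme that makes cysteine from cystathionine, was at 8.37, 8.23 and 7.51 CPM against 9.28, 11.1 and 14.6 CPM (-0.56 ± 0.18). These 3 lay below all unirradiated libraries. The other lower genes with the smallest p, Hsd17b1, Carmil3, Med22, Adhfe1, Gyg and Alg14, had log2 fold changes of -0.86 (Hsd17b1) to -0.29 (Med22).

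**Figure D4:**
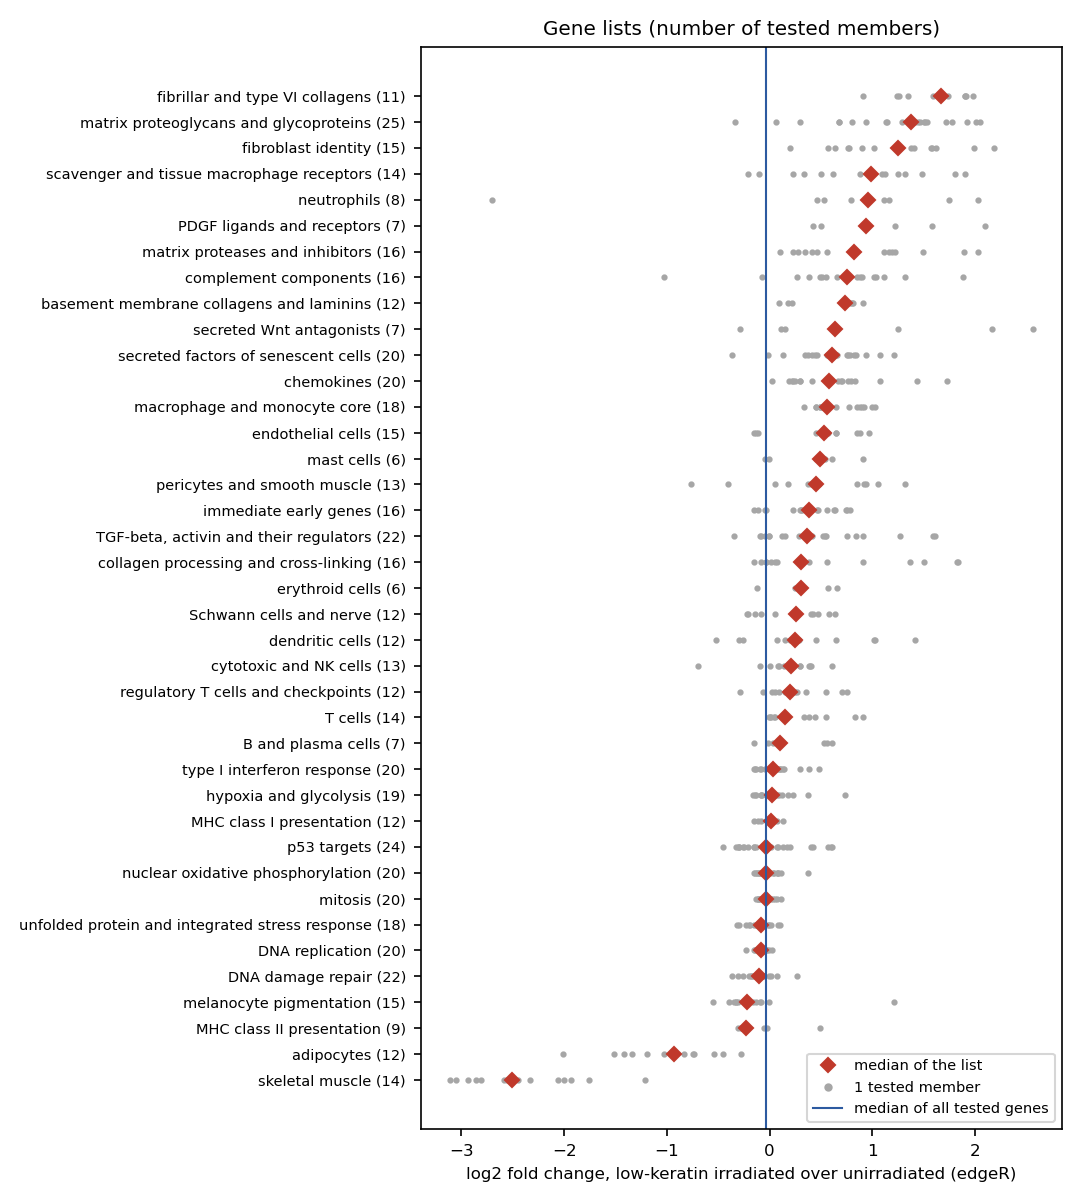
Log2 fold changes of the tested members of each gene list (grey points) and their median (red diamonds), in order of the median, with the median of all tested genes as a blue line; skin epithelium and GABA-A receptor subunits are not drawn. Lists of fibrillar and type VI collagens, matrix proteoglycans and glycoproteins, fibroblast identity and scavenger receptors lie furthest right. Neutrophil genes come next, at a median of 0.95, with 1 of 8 at an unadjusted edgeR p under 0.05. Adipocyte and skeletal muscle lists, which vary most between libraries, lie furthest left.

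The 3 irradiated libraries differed in what neighbouring tissue they held, and the values follow. Skeletal muscle scores were 2.53, -2.05 and -1.82 in the irradiated libraries and -2.26 to 6.16 in the unirradiated ones. Adipocyte scores were 3.31, 2.63 and -0.18 against -1.54 to 5.88. The adipocyte median of -0.93 was -1.96 without 5 Gy replicate 1, -0.53 without the combined library and 0.20 without QH-II-066 replicate 3. The muscle median of -2.50 was -6.44 without 5 Gy replicate 1 and -0.02 without QH-II-066 replicate 4, and its sign turned with all 8 irradiated libraries (1.95) and with the replicate block (1.52). Adipoq, the adiponectin of fat cells, was at 13, 7.93 and 0.559 CPM against 0, 4.23 and 110.0 CPM, and Acta1, the actin of skeletal muscle, at 24.6, 0.633 and 0.186 CPM against 0.0328, 5.08 and 336 CPM. The library with most muscle among the irradiated, 5 Gy replicate 1, was also the highest for Col1a1 and Col5a1, and 5 Gy replicate 3 had the lowest muscle score of the 3. Without the 4 of the 11 libraries with a muscle score above 1.5, a setting chosen after the data had been seen, the collagen median was 1.06. The gene length slope, a measure that can follow RNA quality, was 0.205, -0.0511 and -0.248 in the irradiated libraries and -0.247 to 0.228 in the others. With the muscle score, the adipocyte score or the gene length slope as a covariate, the median log2 fold change of fibrillar and type VI collagens was 1.73, 1.62 and 1.61. The median log2 fold change of fibroblast identity was 1.28, 1.35 and 1.25 in these fits, and the median log2 fold change of scavenger and tissue macrophage receptors was 1.04, 0.85 and 0.96.

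Within each drug stratum the collagens pointed the same way. The 2 drug-free irradiated libraries differed from the 4 untreated ones by a median of 2.09 on the log2 scale over the 11 collagens, and the irradiated library with the drug from the 4 of QH-II-066 alone by 0.90, with 11 of 11 above 0 in both. There is 1 irradiated library with the drug, so the second difference has no replicate check. For the other lists the pairs were 1.95 and 0.69 for proteoglycans and glycoproteins, 1.74 and 0.81 for fibroblast identity, 0.88 and 0.66 for macrophages and 0.72 and 0.63 for chemokines. Scavenger receptors had 1.78 and 0.12, and basement membrane 0.91 and -0.19. Adipocyte genes stood at 3.11 and -4.05. The unirradiated groups that these differences start from were themselves unlike. Median scores of untreated and of QH-II-066 libraries were 4.56 and 5.19 for collagens and 3.68 and 4.63 for proteoglycans and glycoproteins. They were 1.23 and 2.53 for fibroblast identity, 2.47 and 3.52 for scavenger receptors and, the other way, 5.46 and 5.26 for basement membrane. For fibroblast identity the 3 irradiated libraries scored 3.28, 3.14 and 3.38. Across all 15592 genes, which are not independent replicates, the Pearson correlation of the pair of differences, which share no library, was 0.121.

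A fit with radiation, drug and their interaction had 1 library with both treatments, so effect sizes alone are given for the interaction. The following 3 genes, among 23 looked up whatever their values, were picked for this fit after those values were seen. Chl1, a cell adhesion molecule of nerve and stroma, was at 4.10, 3.66 and 0.719 CPM against 0.155, 0.729 and 1.78 CPM (1.70 ± 0.64). Its differences were 3.30 without the drug and -0.81 with it, an interaction of -4.31. Fst, follistatin, which binds activin, was at 3.16, 3.13 and 0.906 CPM against 0.189, 1.0 and 1.85 CPM, with 2.94 and -0.74 (interaction -3.77). Cd163 had 2.96 and 0.19 (interaction -2.85). For each of these the 2 drug-free libraries lay above and the library with the drug within the unirradiated range. Outside the comparison, high-keratin replicate 4 of the combined group lay above that range for Chl1 and Cd163, and replicates 2 and 3 within it. With 1 library the drug and that library cannot be told apart.

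**Figure D5:**
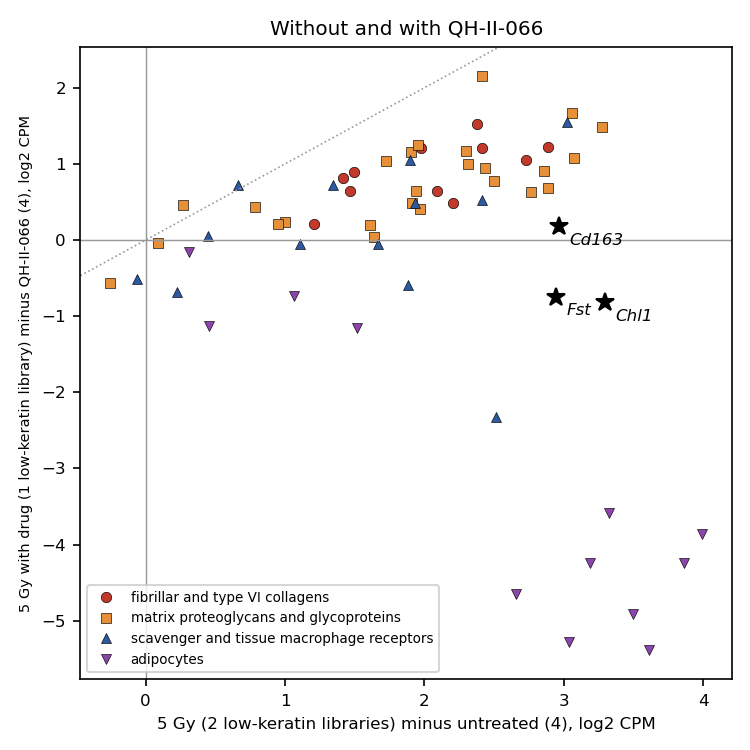
Difference in mean log2 CPM of 2 low-keratin 5 Gy libraries from 4 untreated ones (horizontal) against that of 1 low-keratin library given both treatments from 4 given QH-II-066 (vertical), with 1 point per gene and equal values on the dotted line. Collagens lie above 0 on both axes, adipocyte genes at up to -5.39 on the vertical one, and Chl1, Fst and Cd163 far right and near or under 0 vertically.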

How the data were processed

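RNA of 16 tumour libraries was sequenced on an Illumina instrument, and 11 were compared. Values were deposited as raw fragment counts per gene in whole numbers, made by featureCounts 1.6.0 on read pairs with no strand option, per the file headers. The submitters' processing notes also name STAR 2.4.1a, edgeR and mm10. Antisense or overlapping genes and near-identical copies are therefore uncertain. The 37 mitochondrial genes had 0 counts. Total counts were 6994198 to 40799942, and a count of 0 allows a level of up to 0.13 CPM (3 counts) in the 11 libraries (counting error only).

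Genes passing filterByExpr were tested in edgeR 4.0.16 (R 4.3.3) by its robust quasi-likelihood test after TMM scaling, two-sided, with Benjamini-Hochberg adjustment at 0.05. Alternatives used DESeq2 1.42.0, limma 3.58.1 (voom with sample weights), other scaling and filters, covariates (drug, muscle, adipocyte and skin scores, gene length slope), other sets of libraries, the replicate block, a threshold of 0.1 and each library left out. The computation was tested on simulated data. The gene length slope regresses how far each gene's log2 CPM in a library lies from its mean on log2 gene length, for genes above a log2 CPM of 3.

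The libraries, members and lists were chosen with earlier results of these data known. The rule for named genes was the 15 highest and 10 lowest fold changes among called genes whose mean log2 CPM was 1 or more, up to 4 members of each list with a called member, and 23 fixed look-ups. As 0 genes were called, the 25 genes with the smallest p, the 10 lower genes with the smallest p (same minimum) and the list members were named after their values were seen. Of 639 list entries in 41 lists, 638 matched the table. Promoters are from RefSeq (GRCm38.p6).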

Additional observations from a re-analysis of the deposited data

Results flagged for a closer look

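Some values stood far from the rest of their group of 4, by Dixon's test at the 95% level, in 4 of 110 groups of the named genes, where chance gives about 1 in 20. Acta1, the actin of skeletal muscle, was at 336 CPM in QH-II-066 replicate 4 and at 0.161 to 5.66 CPM in the other libraries of that group. Adipoq, the adiponectin of fat cells, was at 8.02 CPM in untreated replicate 1, with 0 to 0.725 CPM in the rest. Cpz, a carboxypeptidase of the matrix, was at 1.12 CPM in QH-II-066 replicate 2, and Tfpi2, a protease inhibitor, at 2.66 CPM in untreated replicate 4. Skin epithelium genes were not tested in this way.

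Signal in libraries outside the comparison came from the keratins that set it. In the 5 high-keratin irradiated libraries the 6 keratins summed to 2970 and 2030 CPM in 5 Gy replicates 2 and 4, and to 883, 261 and 1210 in replicates 2, 3 and 4 of the combined group. The highest of the unirradiated libraries had 4.60.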

How the results depend on the processing

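Calls depended on the tool. DESeq2 called 88 genes higher and 1 lower, limma-voom with sample weights 170 and 48, and edgeR 3 and 1 with the gene length slope in the model, the last being Oca2. The other edgeR settings, including a threshold of 0.1, called 0, as did each fit that left out 1 library (0 to 0 in both directions). At an unadjusted p under 0.05, limma-voom counted 1305 higher and 990 lower genes and DESeq2 291 lower. Without a filter there were 1103 and 298, of 27488 genes in place of 15592, and over 16 libraries with the skin score in the model 376 and 77. The higher count was 1071 for 8 irradiated against 8 unirradiated libraries. The lower count was 318 with the drug as a term, 61 in drug-free libraries alone, 846 with the gene length slope and 253 without the 4 libraries of high muscle score, a setting chosen after the data had been seen. Leaving out 1 library gave 440 to 681 higher and 109 to 233 lower genes.

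Whether replicate numbers pair these samples is not known. Correlations of deviations from the group mean between same-numbered libraries were -0.09 to 0.20 for untreated with QH-II-066, 0.03 and -0.30 for 5 Gy with untreated and -0.51 and -0.45 for 5 Gy with QH-II-066. The deviations of 5 Gy replicates 1 and 3 mirror each other, as their mean rests on these alone. Such correlations, with no reference value beside them, cannot decide the question. With the replicate number as a block edgeR called 0 genes higher and 0 lower, and Acta1 was at 3.50.

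Of 57 named genes 10 changed sign in some setting, none of them among the 25 with the smallest p, whose selection on the same libraries favours that, and 2 of them the keratins Krt5 and Krt14. Acta1, at -2.56 in the edgeR fit of the 11, was at 2.46 with all 16 libraries, and ran from -6.96 (without 5 Gy replicate 1) to -0.038 (without QH-II-066 replicate 4). Adipoq, at -1.42 in that fit, was at 0.24 in DESeq2, 0.90 in limma-voom, 1.08 with the drug as a term, 2.19 in drug-free libraries and 0.086 with the adipocyte score, and at -2.18 (without 5 Gy replicate 1) to 0.20 (without QH-II-066 replicate 3) when 1 library was left out. Cdkn1a was at -0.029 with all 16 libraries, and without single libraries ran from -0.094 (5 Gy replicate 3) to 0.18 (5 Gy replicate 1). Mdm2 ran from -0.095 (5 Gy replicate 1) to 0.0012 (the combined library), and Mki67 from -0.14 (5 Gy replicate 1) to 0.052 (5 Gy replicate 3). Isg15 was at -0.018 in limma-voom, -0.23 in drug-free libraries, -0.17 with all 16 and -0.0057 with the gene length slope, and ran from -0.36 (the combined library) to 0.38 (5 Gy replicate 1). Foxp3 was at -0.20 in limma-voom and ran from -0.34 (5 Gy replicate 1) to 1.06 (5 Gy replicate 3). Cd8a was at -0.78 in limma-voom, -0.029 in drug-free libraries, -0.19 with the skin score and -0.087 without the 4 muscle libraries, and ran from -0.19 (the combined library) to 0.32 (5 Gy replicate 3). The cause of these changes was not tested.

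With 3 irradiated libraries, 1 of them with the drug, differences of genes with few counts or with wide spread could not be resolved, and each irradiated library weighs heavily on its side.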

Other observations

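The 5 high-keratin irradiated libraries lay outside the comparison of 11 and entered some alternatives only. They are given in the order of 5 Gy replicates 2 and 4, then replicates 2, 3 and 4 of the combined group. The last of these had 6994198 total counts, the fewest of the 16 libraries. Col1a1, a chain of type I collagen, was at 895, 453, 159.9, 284 and 472 CPM, beside 124, 149.7 and 303 CPM as the lowest, median and highest unirradiated values. Il33, the alarmin cytokine, was at 20.5, 17.3, 16.1, 7.16 and 11.7 CPM, and Stab1, the scavenger receptor, at 68.4, 45.0, 37.1, 49.0 and 45.7 CPM. Cd163, the haemoglobin scavenger receptor, was at 42.8, 13.6, 2.56, 4.65 and 15.7 CPM, and Chl1, the adhesion molecule, at 12.8, 9.78, 1.70, 1.65 and 3.44 CPM. For Col1a1, Cd163 and Chl1 both 5 Gy libraries and replicate 4 of the combined group lay above the unirradiated range, while its replicates 2 and 3 lay within it.

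GABA-A receptor subunits, which form chloride channels, were rare: 3 of 16 passed the filter on low counts, namely Gabra3, Gabrb1 and Gabrd. Of 20 tested secreted factors of senescent cells 5 had an unadjusted edgeR p under 0.05, and the median log2 fold change was 0.60. Among them Serpine2, a protease inhibitor, was at 1.21 ± 0.26 (SE; edgeR adjusted p = 0.242). Lists of hypoxia and glycolysis and of nuclear oxidative phosphorylation had medians of 0.02 and -0.04, with 0 members at an unadjusted edgeR p under 0.05 in either. The first was 0.29 under limma-voom and -0.20 without 5 Gy replicate 3.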
